A study of Xenopus tropicalis with 12 samples.

Results

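The loss of thyroid hormone receptor α (TRα) in T3-treated tadpole tail was examined at 3237 regions of the genome at which peaks of chromatin bound by an antibody to thyroid hormone receptor (TR) recurred between libraries. Peaks of 6 lists, 3 from tails without TRα (KO T3) and 3 from wild-type tails (WT T3), were merged into regions wherever they shared at least 1 bp. This gave 121809 regions, and the 3237 (the members) were those found in 4 or more of the 6 lists. The 12 lists of the whole series merged into 256032 regions.

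KO T3 tails came from Xenopus tropicalis tadpoles whose TRα gene was disrupted on both copies (TRα -/-), and WT T3 tails from wild-type tadpoles of the same parents. Both were treated from around stage 54 with T3, the hormone that drives metamorphosis, at 10 nM and for 18 hours. KO control and WT control tails, again 3 libraries each, were of the same 2 genotypes without T3. The antibody was not a commercial one, and the labels do not say which receptor forms it binds. The series' note on its design speaks of 3 technical replicates of material merged from several tadpoles, so that p-values here measure the spread between libraries, which may be technical. The disruption of the TRα gene was not checked here, since peak lists do not measure it.

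TRα and TRβ are nuclear receptors that sit on response elements in chromatin both with and without hormone. Without T3 they are known for holding target genes back with corepressors, and with T3 for switching them on with coactivators. In frogs TRα is widely expressed in the premetamorphic tadpole, the gene for TRβ is itself switched on by T3, and the tail is resorbed at the climax of metamorphosis, which T3 drives. An antibody that binds both receptors would still find TRβ in tails without TRα.

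A peak's height was taken as its summit pileup, the number of sequenced fragments over the summit, divided by the library's fragments after filtering and given per 1000000 fragments (abbreviated FPM). A list without a peak counted as missing and not as zero. The 6 libraries differed widely in depth. KO T3 1, 2 and 3 held 820314, 1547243 and 149532 fragments, and WT T3 1, 2 and 3 held 299393, 529290 and 774170. A single fragment was therefore worth 1.22, 0.646 and 6.69 FPM in the KO T3 libraries and 3.34, 1.89 and 1.29 FPM in the WT T3 libraries. In KO T3 3 the lowest peaks had 1 fragment, and no value below 6.69 FPM could enter from that list. In whole tail, a lower pileup from fewer cells with the receptor at a region cannot be told from less receptor there in each cell, and with no input library used here a peak cannot be told from a site that gives many fragments with any antibody.

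Among the 121809 regions, 109138 had a peak in 1 list, 6862 in 2 and 2572 in 3, against 1629 in 4, 952 in 5 and 656 in all 6. The mean summit pileup of a region over its lists had a median of 5.5 fragments for members just inside the limit, with 4 lists, and 4.33 for regions just outside it, with 3. The tallest pair with exactly 4 evenly split lists lay on chromosome 10. That from 16972910 to 16973610 had 95 and 174 fragments in KO T3 1 and 2, and 70 and 55 in WT T3 2 and 3. That from 20065719 to 20066997 had 56 and 139 fragments in the same KO T3 libraries, and 40 and 78 in the same WT T3 libraries. Just outside, chromosome 3 from 131794175 to 131794350 held 360 and 261 fragments in KO T3 1 and 3 and 209 in WT T3 1, and chromosome 6 from 112587167 to 112587347 held 53 and 47 in KO T3 1 and 3 and 21 in WT T3 1. A tall region could thus miss the limit through lists without a peak.

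Members were wider than the other regions of the 6 lists and lay closer to the ends of chromosomes. Their median width was 888 bp, against 237 bp for the 118572 other regions. The zone within 3 Mb of an end was measured from the start of a chromosome and from the furthest peak at its other end. It held 920 members (28.4%), against 7274 of the other regions (6.13%). Members per Mb ran from 2.00 on chromosome 1, the longest, to 5.91 on chromosome 10, the shortest. The median log2 difference (KO T3 minus WT T3) was -0.16 near the ends and -0.19 farther in. All coordinates are those of genome build 9.1, as deposited. No gene could be placed at a region, because coordinates of build 9.1 cannot be read against the annotation of build 10.0, which was not used here.

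The first question was whether loss of TRα left fewer of the shared regions occupied. The members were chosen by peaks in the same lists that are counted here. A region with no KO T3 peak, or with no WT T3 peak, could not be a member. Among regions with a peak in exactly 3 lists, 79 had all 3 in WT T3 and 127 had all 3 in KO T3. Whether regions lost every KO T3 peak was therefore not tested by these counts. KO T3 1, 2 and 3 had a peak at 2924, 3153 and 1687 members, and WT T3 1, 2 and 3 at 1871, 2662 and 2915. The groups overlapped, and the shallowest library of each group was the lowest in it. The difference of the means was 105.333 regions (KO T3 minus WT T3), less than the spread between libraries (exact two-sided permutation p = 0.7, 20 assignments, smallest possible p 0.1). It moved to -200.5 without WT T3 1, to -177.167 without KO T3 2, to -62.6667 without KO T3 1 and to 555.833 without KO T3 3.

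**Figure D1:**
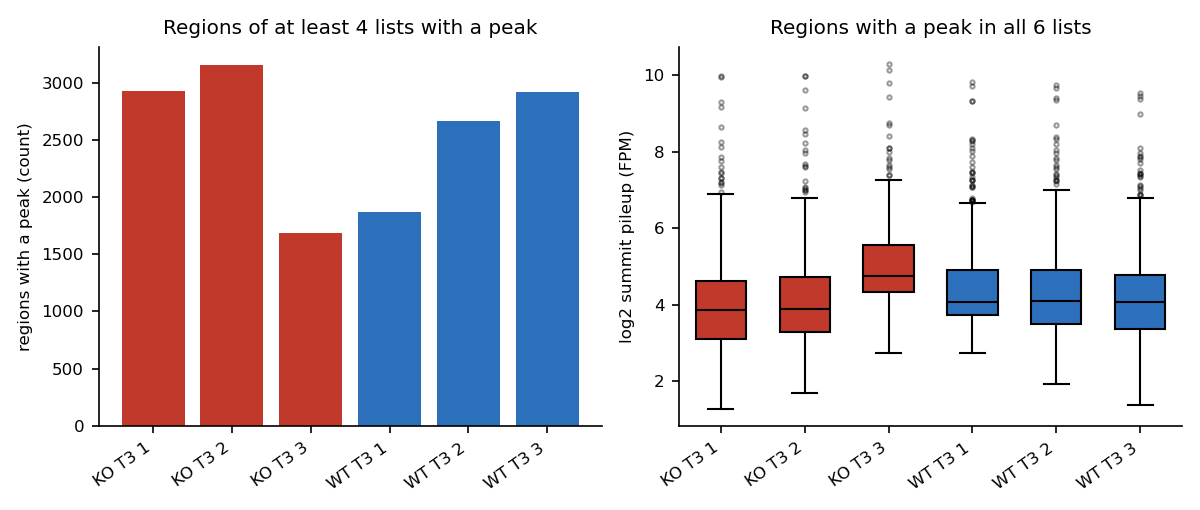
Left, number of the 3237 regions with a peak in each T3 library (bars). Right, log2 summit pileup (FPM) at the 656 regions with a peak in all 6 lists (box, quartiles and median; whiskers, 1.5 times the interquartile range; points, regions beyond). KO T3 is red and WT T3 blue. KO T3 3 has the fewest regions with a peak, 1687, and the highest median, 4.74, while the other 5 medians lie between 3.87 and 4.09.

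The height of the regions seen in every list also overlapped between the genotypes. Over the 656 regions with a peak in all 6 lists, the median log2 pileup (FPM) was 3.87, 3.89 and 4.74 in KO T3 1, 2 and 3, and 4.06, 4.09 and 4.07 in WT T3 1, 2 and 3. KO T3 3 stood above every other library, and KO T3 1 and 2 stood below every WT T3 library. The difference of the means was 0.10 (KO T3 minus WT T3) on the log2 scale (exact two-sided permutation p = 1, 20 assignments). Without KO T3 3 it was -0.19 (exact two-sided permutation p = 0.1, the smallest that 2 against 3 libraries allow).

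Among WT T3 libraries, a difference between 1 and 2 beyond sampling noise was not detected. Over 74 regions with at least 40 fragments in the pair, a chi-square test of their pileups gave 1.07 per degree of freedom (p = 0.318), while WT T3 1 and 3 gave 1.97, WT T3 2 and 3 gave 2.39, and KO T3 1 and 2 gave 1.58. The headers of WT T3 1 and 2 gave different fragment sizes, 167 and 191 bp, and their lists shared 1907 regions. The names in the headers carried the same number, 10, for both, and 22 for WT T3 3. KO T3 1 and 2 likewise shared the number 12, and KO T3 3 had 24. The labels do not say what these numbers stand for. They were kept as separate libraries, and the counts of calls are also given with their mean counted as 1 sample. So counted, the difference in regions with a peak was -2.75 (exact permutation p = 1) and the difference in median log2 pileup 0.10 (exact permutation p = 1).

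Region by region, no member passed the test. With limma on log2 pileup (FPM) over all 3237 members, 0 were higher (0%) and 0 lower (0%) in KO T3 at a Benjamini-Hochberg adjusted p below 0.05, and the smallest adjusted p was 0.424. The same counts, 0 and 0, came with WT T3 1 and 2 as 1 sample. Leaving out a library gave 1 higher and 1 lower without KO T3 1, 1 and 0 without KO T3 2, 0 and 0 without WT T3 1, 3 and 1 without WT T3 2, and 3 and 2 without WT T3 3. At an unadjusted limma p below 0.05, 28 members were higher (0.865%) and 116 lower (3.58%). The median log2 difference over all members was -0.18, with 1996 members below 0 and 1241 above. Where all 6 lists had a peak, every KO T3 library was above every WT T3 library at 27 of 656 regions (4.12%) and below at 30 (4.57%).

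Leaving out KO T3 3, the shallowest library, changed the counts of calls. With the other 5 libraries, limma called 1 member higher (0.0309%) and 21 lower (0.65%) of 3232 at an adjusted p below 0.05, and at an unadjusted p below 0.05, 31 were higher (0.959%) and 380 lower (11.8%). The median log2 difference became -0.41. In this fit limma took a region's spread almost wholly from regions of like height. The fit of all 6 libraries did so only in part. The change in calls thus mixes the loss of KO T3 3 with a change in how the spread was estimated. Among the 656 regions of all 6 lists, KO T3 1 and 2 were both above every WT T3 library at 33 (5.03%) and both below at 136 (20.7%). When each of the 5 libraries was also centred on its median over the 656 regions, the calls were 4 higher (0.124%) and 11 lower (0.34%), all 11 among the 21, and the median log2 difference was -0.22. When the regions were rebuilt from the 5 lists alone, 0 were higher (0%) and 11 lower (0.404%) of 2722.

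**Figure D2:**
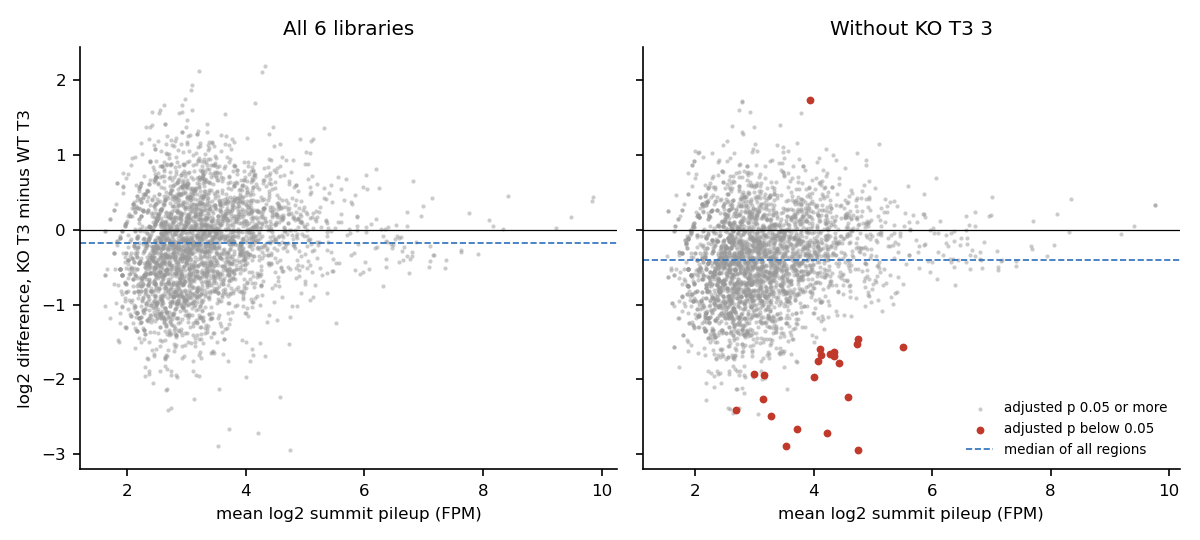
Log2 difference in summit pileup in FPM (KO T3 minus WT T3, vertical axis) against the mean log2 pileup (FPM) over libraries (horizontal axis), 1 point per region, with all 6 libraries (left) and without KO T3 3 (right). Red points have a limma adjusted p below 0.05, and the dashed line is the median of all regions. No region is red on the left. On the right 21 lie below 0 and 1 above, and the median lies at -0.41 in place of -0.18.

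The difference moved with the number of fragments at the summit. For 891 members with a mean of under 5 fragments the median log2 difference (KO T3 minus WT T3) was -0.35, for 1541 with 5 to 10 fragments -0.21, for 600 with 10 to 20 fragments -0.01 and for 205 with 20 or more -0.01. Without KO T3 3 these medians were -0.61, -0.43, -0.17 and -0.13. The low members thus lay further below 0 than the tall ones, with or without that library. Where it had a peak, KO T3 3 itself lay above the median of the other 5 libraries by 1.17, 1.05, 0.79 and 0.30 on the log2 scale in the same 4 classes. WT T3 1, the shallowest WT T3 library, lay above that median by 0.71, 0.32, 0.05 and 0.01. The part of depth and of the lowest possible peak in these differences was not tested.

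Which lists held a region also went with the size of its difference, as the choice of members by lists allows. Members with 3 KO T3 and 3 WT T3 lists had a median log2 difference of 0.07, the 476 with 3 KO T3 and 2 WT T3 lists had -0.0012, and the 317 with 3 KO T3 lists and 1 WT T3 list had 0.01. The 476 with 2 KO T3 and 3 WT T3 lists had -0.35, the 1153 with 2 of each -0.37, and the 159 with 1 KO T3 list and 3 WT T3 lists -0.71. Without KO T3 3 the same medians, in the order given, were -0.20, -0.40, -0.43, -0.41, -0.48 and -0.77. Those for 3 and for 2 KO T3 lists then lay close together, except where all 6 lists had a peak. KO T3 3 was the missing list in 431 of the 476 that lacked 1 KO T3 list, in 965 of the 1153 and in 154 of the 159. In the other direction, WT T3 1 was missing in 275 of the 317.

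The member with the smallest p in the lower direction was on chromosome 3 from 129209321 to 129209729 (region L1). It had 9 fragments in KO T3 2 and no peak in KO T3 1 or 3, against 12, 19 and 48 fragments in WT T3 1, 2 and 3. In FPM this was 5.82 in KO T3 2, against 40.1, 35.9 and 62.0 in the WT T3 libraries. The 1 KO T3 value lay below every WT T3 value, and the log2 difference was -2.94 (SE 0.59, limma adjusted p = 0.424), so the region did not pass. Without KO T3 3, where it has no peak, the same difference had a limma adjusted p of 3.24e-06, which rests on 1 KO T3 value taken to vary like the libraries of other regions. L1 also passed without KO T3 1 (log2 difference -2.94) and without WT T3 2 (-3.10), again resting on 1 KO T3 value. In the control lists it had 7 fragments in WT control 3 and no other peak.

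A similar pattern was seen on chromosome 1 from 135033057 to 135033718 (region L2). It had 7 and 16 fragments in KO T3 1 and 2 and no peak in KO T3 3, against 17, 27 and 23 fragments in WT T3 1, 2 and 3. In FPM this was 8.53 and 10.3 in KO T3, against 56.8, 51.0 and 29.7 in WT T3. The groups did not overlap, and the log2 difference was -2.23 (SE 0.48, limma adjusted p = 0.424; 1.62e-05 without KO T3 3). L2 also passed without WT T3 3, which held its lowest WT T3 value (log2 difference -2.52, limma adjusted p = 0.0283). The spread was estimated anew in that fit, and the part of each in the call was not tested. Without T3 it had no KO control peak, and 9 and 11 fragments in WT control 2 and 3.

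A further 3 regions completed the 5 with the smallest p in this direction, and none passed with all 6 libraries. On chromosome 8 from 76282340 to 76282708 (L3), KO T3 1 and 2 had 4.88 and 3.88 FPM, against 56.8, 28.3 and 12.9 in WT T3. L3 passed without WT T3 3, which held its lowest WT T3 value (limma adjusted p = 0.00463). The part of that value and of the spread, estimated anew in that fit, was again not tested. On chromosome 10 from 33864704 to 33865520 (L4), KO T3 2 had 4.52 FPM, against 33.4, 34.0 and 23.3 in WT T3. On chromosome 9 from 8293200 to 8293892 (L5), KO T3 1 and 2 had 3.66 and 3.23 FPM, against 20.04, 13.2 and 16.8 in WT T3. All 3 lacked a peak in KO T3 3, and their log2 differences were -2.66, -2.72 and -2.26, with limma adjusted p-values of 0.657, 0.657 and 0.726. These values rested on 3 to 7 fragments at the summit in the KO T3 libraries and 6 to 18 in the WT T3 libraries.

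**Figure D3:**
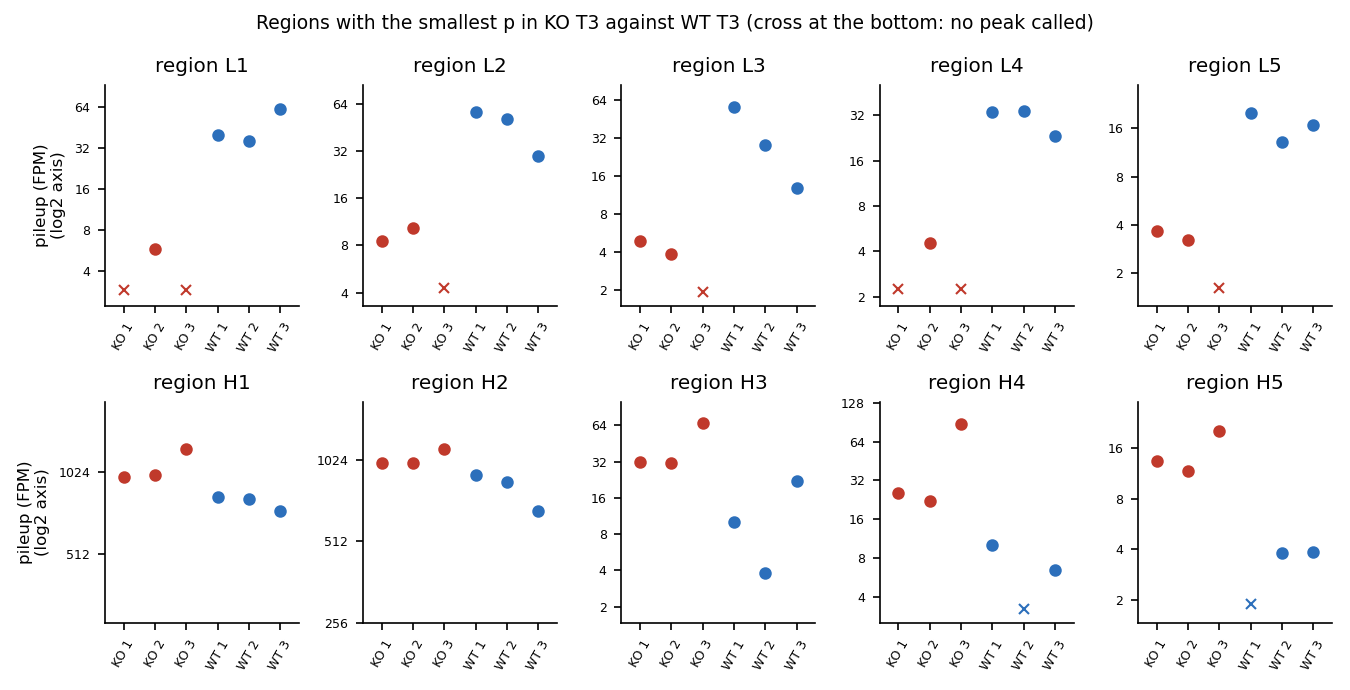
Summit pileup in fragments per 1000000 (FPM, log2 axis, its own range in each panel) in KO T3 1 to 3 (red) and WT T3 1 to 3 (blue) at the 5 regions with the smallest p in the lower direction (L1 to L5) and in the higher direction (H1 to H5). A cross at the bottom marks a library with no peak and has no value. KO T3 3 has no peak at L1 to L5, and at H1 to H5 it is the highest library.

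The 21 members lower in KO T3 1 and 2 included L1 to L5 and had log2 differences of -2.94 to -1.45, with a median of -1.92. These calls were singled out after their values were seen. Their median pileup in FPM was 8.53 in KO T3 1 (18 with a peak) and 5.82 in KO T3 2 (21 with a peak), against 33.4, 30.2 and 23.3 in WT T3 1, 2 and 3. Where they had a peak, KO T3 1 (18) and KO T3 2 (21) lay below every WT T3 library. The choice of the 21 by these same libraries favours this. Among the 656 regions with a peak in all 6 lists, both lay below every WT T3 library at 136 (20.7%). At 3 of the 21, which include L1 and L4, KO T3 2 was the only KO T3 value, so the test took that lone sample to vary like the others. KO T3 3 had no peak at 14 of them, and at the other 7 it stood above both KO T3 1 and 2, and above the lowest WT T3 library at 3. A peak of KO T3 3 could not lie below 6.69 FPM. The choice of the 21 for low values in KO T3 1 and 2 also favours this order. The 21 were spread over the genome, 7 within 3 Mb of a chromosome end, where 920 of all 3237 members lay (28.4%). The tallest was on chromosome 4 from 7888972 to 7889784, with 20.7, 27.1 and 46.8 FPM in KO T3 1, 2 and 3, against 50.1, 64.2 and 108.5 in WT T3 1, 2 and 3. Without KO T3 3 its log2 difference was -1.57 (SE 0.32, limma adjusted p = 0.000687). With KO T3 3 it was -1.24 (limma adjusted p = 0.955).

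In the higher direction, the smallest p belonged to the tallest of the members with a peak in all 6 lists. It lay on chromosome 8 from 23529077 to 23530239 (H1). It had 808, 1551 and 186 fragments in KO T3 1, 2 and 3, against 249, 431 and 571 in WT T3 1, 2 and 3. In FPM this was 985, 1002 and 1244 in KO T3, against 832, 814 and 738 in WT T3. Every KO T3 library was above every WT T3 library, by a log2 difference of 0.43 (SE 0.09, limma adjusted p = 0.424). The next tallest, on chromosome 5 from 35928549 to 35930448 (H2), had 999.6, 998.5 and 1117 FPM in KO T3, against 902, 848 and 664 in WT T3. Again the groups did not overlap, and its log2 difference was 0.38 (SE 0.10, limma adjusted p = 0.837). H1 did pass in 4 of the 6 fits that left out a library, with limma adjusted p-values of 0.0234 without KO T3 1, 0.00314 without KO T3 2, 0.000361 without WT T3 2 and 7.65e-07 without WT T3 3. Its log2 difference in these 4 fits was 0.38 to 0.49, near that of all 6 libraries. Limma estimates the spread anew over all regions in each fit, and the library left out also changes the values of H1 itself. The part of each in the lower p-values was not tested. Without the intensity trend, H1 had a limma adjusted p of 0.956 with all 6 libraries. H2 passed in 2 of them, at 0.00162 without WT T3 2 and 0.0283 without WT T3 3. Both also passed without KO T3 3 after median centring (limma adjusted p = 0.00458 for each).

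The other 3 regions in this direction were low and varied more. On chromosome 4 from 1038121 to 1039069 (H3), the pileup was 31.7, 31.0 and 66.9 FPM in KO T3, against 10.0, 3.78 and 22.0 in WT T3. Its log2 difference was 2.102 (SE 0.59, limma adjusted p = 0.847), and it was the only member called higher without KO T3 3, at 1.74 (limma adjusted p = 0.0211). H3 also passed without WT T3 3 (limma adjusted p = 0.00463). On chromosome 6 from 112400950 to 112401430 (H4), KO T3 had 25.6, 22.0 and 86.9 FPM, against 10.0 and 6.46 in WT T3 1 and 3 and no peak in WT T3 2. On chromosome 6 from 127056872 to 127057676 (H5), KO T3 had 13.4, 11.6 and 20.1 FPM, against 3.78 and 3.88 in WT T3 2 and 3 and no peak in WT T3 1. Neither H4 (2.18) nor H5 (1.93 on the log2 scale) passed, with limma adjusted p-values of 0.848 and 0.955, nor did they without KO T3 3.

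The 8 tallest members of all 6 lists were H1, H2 and 6 more, and none passed the test. On chromosome 10 from 16969896 to 16970788, KO T3 had 625, 778 and 883 FPM, against 641, 674 and 704 in WT T3. On chromosome 8 from 23523129 to 23524073, a neighbour of H1, KO T3 had 575, 564 and 682 FPM, against 635, 648 and 508 in WT T3. On chromosome 4 from 52501689 to 52502258, KO T3 had 396, 378 and 428 FPM, against 317, 333 and 235 in WT T3, with no overlap and a log2 difference of 0.46 (SE 0.15, limma adjusted p = 0.955). The remaining 3, on chromosomes 3 (from 110350625), 8 (from 97813504) and 5 (from 145703921), had 230.4 to 415 FPM in KO T3 and 207 to 418 in WT T3, with log2 differences of 0.01, 0.05 and 0.13. All 8 were taken from regions with a peak in every T3 list.

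Of members with 3 lists of a genotype and 1 of the other, the tallest were chosen by their mean FPM over the lists with a peak. With 3 KO T3 lists, the region on chromosome 10 from 5098610 to 5098802 had 17.1, 21.3 and 187 FPM in KO T3, against 26.7 in WT T3 1. The region on chromosome 7 from 97154248 to 97155902 had 30.5, 23.3 and 73.6 FPM in KO T3, against 26.4 in WT T3 2. The region on chromosome 9 from 45621112 to 45621933 had 21.9, 27.8 and 60.2 FPM in KO T3, against 36.2 in WT T3 3. In all 3, KO T3 3 alone was high, and KO T3 1 and 2 were near or below the WT T3 value. The choice favours this, since a high value in KO T3 3, where a single fragment is worth 6.69 FPM, raises the mean. At the first of these regions KO T3 3 had 28 fragments, against 14 and 33 in KO T3 1 and 2. That region was also called higher in KO control (limma adjusted p = 6.66e-05). KO control 1 and 2 had 144 and 125 FPM there, against 18.7 and 14.6 in WT control 1 and 2. With 3 WT T3 lists, the tallest were L1, the region on chromosome 2 from 102072753 to 102073218 (66.6 FPM in KO T3 2, against 103, 86.9 and 74.9 in WT T3) and the region on chromosome 9 from 45617338 to 45618080 (25.9 in KO T3 2, against 50.1, 39.7 and 28.4 in WT T3).

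Most members were also found without T3. Of the 3237, 2212 (68.3%) were found in 4 or more of the 6 control lists, 379 in all 12 lists, and 41 (1.27%) in no control list. The 41 were low, with at most 7.5 fragments at the summit on average, and 11 of them had more KO T3 than WT T3 lists, 10 fewer and 20 as many. The control libraries took no part in choosing the members. In them, limma called 14 of the 2212 higher (0.633%) and 24 lower (1.08%) in KO control than in WT control at an adjusted p below 0.05. The 14 became 9 without KO control 1 and 22 to 24 without KO control 3, WT control 2 or WT control 3, and the 24 became 10 without WT control 1.

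The genotype differences with and without T3 were set side by side. Over the 2212 members in both fits, the log2 difference in T3 (KO T3 minus WT T3) and that in control (KO control minus WT control) had a correlation of r = 0.01, given as a description across regions, which share their libraries and depths. Over the 157 with a mean log2 pileup above 5 it was 0.32, and 0.16 without KO T3 3. In control these 157 had a median log2 difference of -0.42, with 119 below 0 and 38 above. In T3 their median was 0.0041, with 78 below 0 and 79 above, and it was -0.17 without KO T3 3. Of the 21 members lower without KO T3 3, 15 were in the control fit, where 11 lay below 0 and 4 above, with a median of -0.17. The control difference of all 2212 had a median of 0.03, with 1062 below 0 and 1150 above. The 24 members lower in KO control had a median log2 difference in T3 of -0.32, with 20 below 0, and -0.40 without KO T3 3. Over all 2212 the median log2 difference in T3 was -0.13, with 1290 below 0, and -0.34 without KO T3 3. Of the 24, 18 are neighbours in 1 group on chromosome 2, described at the end.

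The difference between the genotype differences was tested by an interaction term over all 12 libraries, for the 1725 members with at least 2 lists in each group. It passed for 9 (0.522%) at a limma adjusted p below 0.05, 4 with a higher (0.232%) and 5 with a lower (0.29%) genotype difference in T3 than in control. When each library was centred on its median the split was 1 higher and 6 lower, and the median of all interaction terms moved to -0.33 in place of -0.13. The 9 became 5 with WT T3 1 and 2 as 1 sample, 16 without KO T3 3, and 2 to 5 without KO T3 2, any 1 WT T3 library, KO control 3, WT control 1 or WT control 2. H1 and H2, named above as the tallest members of all 6 lists, were among the 9. As a set, the 157 members with a mean log2 pileup above 5 also had a lower median log2 difference in control (-0.42) than in T3 (0.0041). H1 had 985, 1002 and 1244 FPM in KO T3 and 832, 814 and 738 in WT T3, while without T3 the KO control libraries had 447, 527 and 423 and the WT control libraries 648, 768 and 693. It was lower in KO control (log2 difference -0.60, limma adjusted p = 0.0231), and the interaction was 1.03 (SE 0.16, limma adjusted p = 0.00176). For H2 the KO control libraries had 527, 514 and 444 FPM and the WT control libraries 821, 841 and 627, and its interaction was 0.99 (SE 0.17, limma adjusted p = 0.00592). Both passed in each of the 12 fits that left out a library and with WT T3 1 and 2 as 1 sample, and neither passed after median centring.

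**Figure D4:**
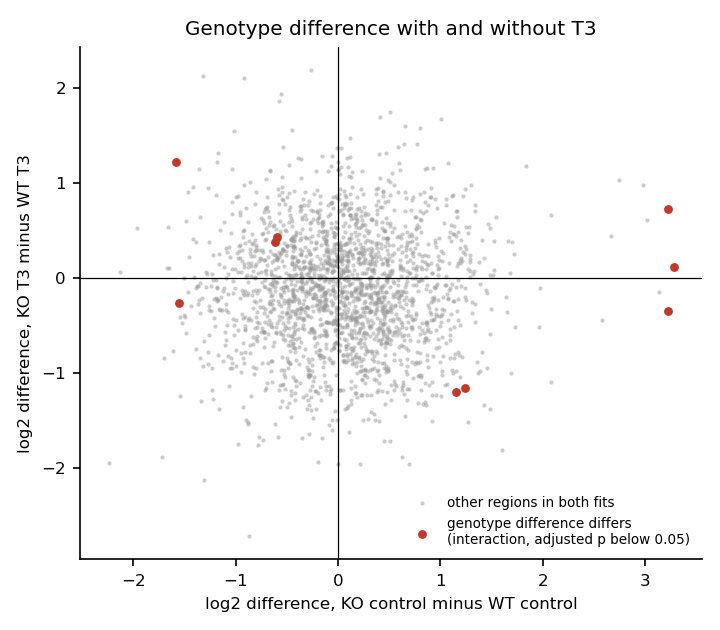
Log2 difference with T3 (KO T3 minus WT T3, vertical axis) against log2 difference without T3 (KO control minus WT control, horizontal axis) at the 2212 regions in both fits, 1 point each. Red points are the 9 regions whose interaction term passed, 5 of them at the right with values from 1.15 to 3.28 without T3. Over all 2212 points r = 0.01.

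At the 14 members higher in KO control, KO T3 1 and 2 differed from WT T3 by a median log2 of -0.18 and lay above WT T3 at 5 of the 14. In the other direction of the interaction, 5 of these 14 members passed, each high in KO control and not in KO T3 1 and 2. The largest control difference among them was that of chromosome 5 from 6443948 to 6444564, with 23.2, 33.0 and 154 FPM in KO T3 1, 2 and 3 and 40.1, 56.7 and 41.3 in WT T3, against 373, 387 and 297 in the KO control libraries and 27.1, 47.8 and 36.2 in the WT control libraries. Its log2 difference was 0.11 in T3 (limma adjusted p = 0.986) and 3.28 in control (limma adjusted p = 3.02e-07), and the interaction was -3.17 (SE 0.60, limma adjusted p = 0.00875). The region on chromosome 6 from 135051045 to 135051664 had 11.0, 5.82 and 13.4 FPM in KO T3 and 11.3 and 12.9 in WT T3 2 and 3, against 70.3, 79.1 and 59.4 in the KO control libraries and 5.85 and 9.40 in WT control 2 and 3. Its interaction was -3.57 (SE 0.66, limma adjusted p = 0.00875). Each of this pair passed in 9 of the 12 fits that left out a library. The first lost its call without KO T3 2, WT T3 2 or WT control 1, and the second without WT T3 2, WT T3 3 or WT control 2.

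KO T3 3 stood apart from KO T3 1 and 2 at the 14 members higher in KO control. It had a peak at 10 of the 14, stood above the mean log2 pileup of KO T3 1 and 2 at 9, and was more than 2-fold above it at 7, with a median log2 distance of 1.89. Over the 506 members with a mean of at least 10 fragments and a peak in KO T3 3, that median was 0.74, and 188 (37.2%) were more than 2-fold above. KO T3 1 and 2 differed from WT T3 by a median of -0.18 at the 14. On chromosome 6 from 12218456 to 12218790, for example, KO T3 1, 2 and 3 had 23.2, 25.2 and 194 FPM and WT T3 30.1, 26.5 and 16.8, against 253, 190.0 and 150.3 in the KO control libraries and 29.2, 32.2 and 25.3 in the WT control libraries. On chromosome 8 from 82453567 to 82454396, KO T3 had 18.3, 19.4 and 80.3 FPM and WT T3 20.04, 18.9 and 16.8, against 165, 196 and 197 in the KO control libraries and 18.7, 16.6 and 25.3 in the WT control libraries. At this pair of regions the library labelled KO T3 3 was above both other KO T3 libraries, and at the first it reached the level of KO control. Whether this library holds some KO control material was not tested. The 0 higher and 0 lower calls in T3 include it, and without it they were 1 and 21. At the 24 members lower in KO control, KO T3 3 lay a median of 0.16 above KO T3 1 and 2.

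Members were often neighbours. Joined over gaps of at most 25000 bp, they formed 2399 groups, of which 34 held at least 5 members. In 7 of the 34 every member had a negative log2 difference (KO T3 minus WT T3) and in 1 every member a positive one, while 1996 of all 3237 members were negative. The largest was on chromosome 2 from 102069361 to 102162865, 93.5 kb with 26 members. All 26 had a negative log2 difference, with a median of -0.35 and a range of -0.75 to -0.10, and none passed (lowest limma adjusted p = 0.955). After median centring 23 of the 26 were negative, with a median of -0.37. At the 10 members of this group with a peak in all 12 lists, the median pileup in FPM was 143, 128 and 140.4 in KO T3 and 185, 189.9 and 168 in WT T3, against 66.8, 80.8 and 57.1 in the KO control libraries and 152, 187 and 169 in the WT control libraries. KO T3 lay below WT T3 in these medians, and KO control far below WT control. Without T3, 18 of the 24 members in the control fit were lower in KO control by the test, with a median log2 difference of -1.21 over the 24. Members of a group share their surroundings and are not independent of each other.

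**Figure D5:**
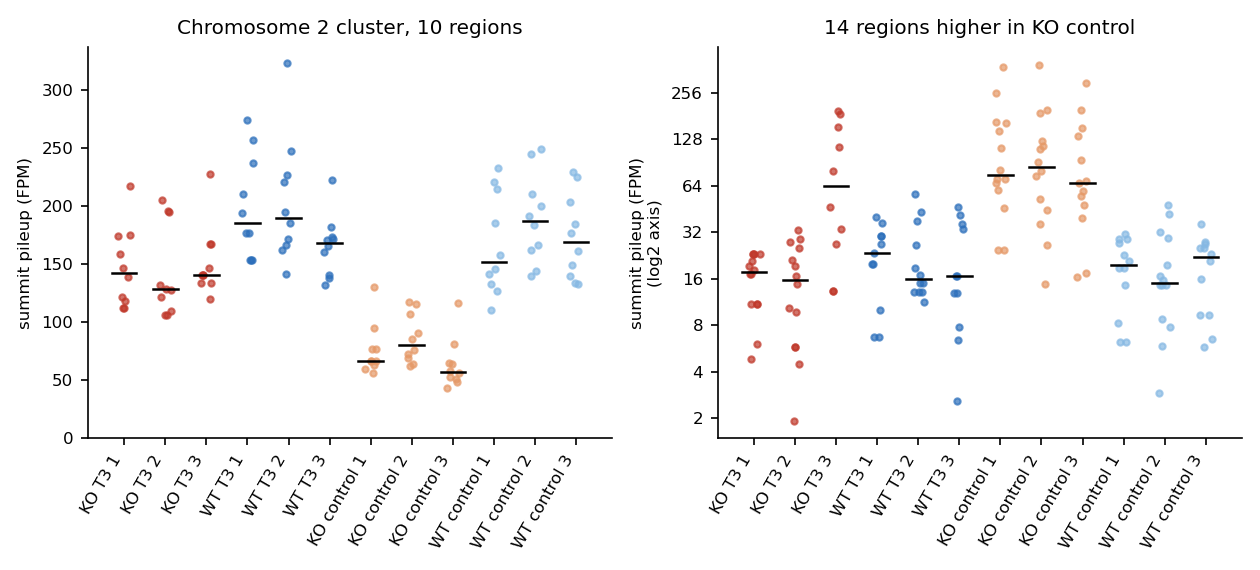
Summit pileup in FPM in each of the 12 libraries. Left, linear axis, the 10 regions of the chromosome 2 group with a peak in all 12 lists. Right, log2 axis, the 14 regions higher in KO control (regions without a peak in a library are left out there). Points are regions and bars are medians. On the left the KO T3 medians, 128 to 143, lie below the WT T3 medians, 168 to 189.9, and above the KO control medians, 57.1 to 80.8. On the right KO T3 3 has points above those of KO T3 1 and 2.

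Of the 20 members of the chromosome 2 group in the interaction fit, 1 passed. It lay from 102078664 to 102079612 and had 176, 196 and 167 FPM in KO T3 and 237, 248 and 171 in WT T3, against 63.3, 107 and 64.1 in the KO control libraries and 233, 211 and 225 in the WT control libraries. Its interaction was 1.29 (SE 0.30, limma adjusted p = 0.0474), and it passed in 2 of the 12 fits that left out a library, and neither with WT T3 1 and 2 as 1 sample nor after centring. The median of the 20 interaction terms was 0.91. Another of the 7 groups with all members negative lay on chromosome 9 from 45595060 to 45667990, with 13 members and a median log2 difference of -0.57 (KO T3 minus WT T3). None of its members passed. In the control fit its 10 members had a median of -0.85 and none passed. The group on chromosome 8 from 97806285 to 97971473 had 14 members, 9 negative and 5 positive, and included 1 of the 21 members lower without KO T3 3.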

How the data were processed

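The deposited data were 1 peak list per library. The submitters' processing notes name Bowtie2 2.3.4.1 and MACS2 2.1.1.20160309. MACS2 called the peaks of every library separately, from paired-end fragments and with no control, per the file headers, which also give its q cutoff (0.05), genome size (1510000000 bp), background window (10000 bp) and build (9.1). The summit pileup is a signal in fragments of that library, before any scaling, per the file headers. A ratio to the local background (fold enrichment) and the −log10 p-value and −log10 q-value of a peak are the authors' own. The deposited fold enrichment was not used for comparisons.

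Pileup was divided by the fragments after filtering of the header, times 1000000, and its log2 taken, with no pseudocount. A region with several peaks in a list took the tallest. The fits used limma 3.58.1 in R 4.3.3 with an intensity trend, missing values left missing, and Benjamini-Hochberg adjustment over all members fitted, at 0.05. The T3 fit held KO T3 and WT T3, the control fit KO control and WT control (at least 4 of 6 control lists), and the interaction fit all 12 libraries (at least 2 lists in each group). Intervals from counts are not given, and few fragments at a summit limit precision.

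Named by rule were up to 8 members per direction past the threshold, otherwise 5 with the smallest p, the 8 tallest of all 6 lists, 3 per direction of 3 lists against 1, and pairs at the limit of lists. Members, lists and tests were chosen with earlier results of these data known. The groups of neighbouring members, the members called in control or without KO T3 3, and the merging of WT T3 1 and 2 were chosen after seeing the data. Samples were grouped by genotype and treatment in the labels. All libraries and all columns of values per sample were mapped, and 0 columns were left out. Gene names and sequences at the regions were not analysed here, since no genome or annotation of build 9.1 was used here.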

Additional observations from a re-analysis of the deposited data

Results flagged for a closer look

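The genotype difference differed between T3 and control at 9 members, by the limma interaction term over all 12 libraries. The 5 with a lower difference in T3 had terms of -3.57 (chromosome 6 from 135051045), -3.17 (chromosome 5 from 6443948), -2.50 (chromosome 8 from 82453567), -2.41 (chromosome 2 from 155159736) and -2.36 (chromosome 6 from 69210942) on the log2 scale. The last of these had 11.0, 9.69 and 33.4 FPM in KO T3 and 30.1, 43.5 and 33.6 in WT T3, against 70.3, 52.8 and 68.8 in the KO control libraries and 29.2, 29.3 and 27.5 in the WT control libraries. The 4 with a higher difference in T3 had terms of 1.03 (chromosome 8 from 23529077), 0.99 (chromosome 5 from 35928549), 1.29 (chromosome 2 from 102078664) and 2.80 (chromosome 8 from 108179986). The last had 42.7, 42.0 and 86.9 FPM in KO T3 and 30.1, 32.1 and 12.9 in WT T3, against 17.6, 8.24 and 8.16 in the KO control libraries and 33.3, 40.003 and 23.9 in the WT control libraries. Over the 12 fits that left out a library, the terms of -2.50 and -2.36 kept their call in only 1 fit each. Those of -2.41 and 2.80 kept it in 4 each, and that of 1.29 in 2. Those of -3.57 and -3.17 kept it in 9 each, and those of 1.03 and 0.99 in all 12. With WT T3 1 and 2 as 1 sample, 5 of the 9 passed. Without KO T3 3 all 9 passed, and without WT T3 2 the pair on chromosome 8 from 23529077 and chromosome 5 from 35928549 alone did.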

How the results depend on the processing

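Region by region, limma called 0 members higher and 0 lower in KO T3 with median centring, summits within 200 bp, −log10 q of at least 5, at least 5 fragments, all 6 lists, no intensity trend or WT T3 1 and 2 as 1 sample. Weights by pileup gave 1 lower, regions rebuilt from 5 lists 11 lower, and leaving out KO T3 3 with centring 4 higher and 11 lower. Leaving out a library gave 0 to 3 higher and 0 to 21 lower. The difference in regions with a peak was -18.3333 at −log10 q of at least 5, -2.75 with WT T3 1 and 2 as 1 sample, and -200.5 to 555.833 without a library. The difference in median log2 pileup ran from -0.19 to 0.24 without a library. In control, leaving out a library gave 9 to 24 higher and 10 to 29 lower. The 9 interaction calls became 5 with WT T3 1 and 2 as 1 sample and 2 to 16 without a library. Same-numbered libraries had correlations of -0.02, -0.03 and 0.0015 in T3 and 0.11, 0.04 and 0.12 in control, not all above 0.1, so the numbers were not taken to pair the libraries. In control, though not in T3, each library correlated best with its own number. The names in the headers also set library 3 of every group apart. They carried numbers of 21 to 24 for library 3, against 9 to 12 for libraries 1 and 2. What these header numbers stand for is not said in the labels. The replicate block gave 0 higher and 0 lower of 1810 in T3, and 9 higher and 11 lower in control. Of the tallest members, that on chromosome 8 from 23523129 turned to -0.067 (centring), -0.016 (weights) and -0.058 (rebuilt), and -0.084 to 0.092 without a library. That on chromosome 3 turned to -0.089 (centring) and -0.033 (rebuilt), and -0.18 to 0.20 without a library. That on chromosome 8 from 97813504 turned to -0.043 (centring), -0.11 (summits), -0.075 (weights), -0.20 (rebuilt) and -0.0080 (without KO T3 3, centred), and -0.20 to 0.23 without a library, and that on chromosome 5 from 145703921 to -0.039 to 0.22. The cause of these changes was not tested. Depth limits the lower classes, where a missing peak means that none was called.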
